A study of Mus musculus with 6 samples.

Results

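The axon guidance ligands and receptors of the mouse retina were described from the RNA of whole retinas taken 2 days after optic nerve crush (ONC) or sham surgery. Members were chosen by gene symbol: the semaphorins, plexins, neuropilins, Eph receptors, ephrins, Slits, Robos, netrins, Dcc and the Unc5 receptors. Of 35485 genes in the deposited tables, 71 matched, and the 64 with a mean RPKM (exon reads divided by exon length and by the mapped reads of the sample) above 0.3 over the 6 samples are described. Of these, 31 are ligands and 32 are receptors or co-receptors. The remaining gene, Unc50, matched by spelling only and codes for a membrane protein of the secretory pathway, not a netrin receptor.

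Axon guidance molecules are read by the tip of a growing axon, the growth cone, which turns toward or away from them. Class 3 semaphorins signal through neuropilins and plexins, other semaphorins mostly through plexins directly, ephrins through Eph receptors, Slits through Robos, and netrins through Dcc and the Unc5 receptors. During development these systems steer the axons of retinal ganglion cells (RGCs) out of the eye, across or away from the midline and to their place in the brain map, and many of them are still made in the adult retina.

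All mice were wild-type C57BL/6 at 12 weeks of age, male according to the methods of the study. In the ONC group the optic nerve was exposed and crushed with forceps for 10 seconds at 2 mm behind the globe, and in the sham group it was exposed only. Each group had 3 samples, and each sample pooled equal amounts of RNA from 6 retinas of 6 mice, so that p-values measure the spread between pools. The crush injures RGC axons, but the RNA is that of the whole retina, and fewer cells of a type cannot be told apart from less RNA per cell.

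Between 17343945 and 20358008 reads per sample lay on exons, and 13670 genes were tested. Over all tested genes, log2 levels of ONC replicates 2 and 3 correlated at Pearson r of 0.990. ONC replicate 1 correlated with these samples at 0.982 and 0.983. The sham samples correlated with each other at 0.982, 0.983 and 0.987, so this measure alone does not set ONC replicate 1 apart. ONC replicate 1 held the highest of the 3 ONC values for 37 of the 64 members (57.8%), against 39.5% of all genes. The main counts are therefore given below with and without it. Leaving it out raised the genes that passed the test below from 833 to 2031, while leaving out any other sample lowered them. Sham replicate 3 had the largest share of intron reads, since exons held 70.9% of its reads on genes and between 75.9% and 80.4% in the other samples. The summed level of 10 RGC markers was 572 to 639 in the sham samples and 401 to 433 in the ONC samples. By the test below, 8 of the 10 genes were called lower and 1 higher (Slc17a6, log2 fold change 0.26). Of all genes tested, 3.72% were called lower and 2.38% higher. The summed level of 6 markers of microglia and macrophages was 6.20 to 7.88 in the sham samples and 7.91 to 10.3 in the ONC samples, and their defining genes were not at 0. Of the 5 that were tested only 1 passed as higher (Itgam), with the same 2.38% of all genes as background. Another 1 had a log2 fold change below 0 (Aif1, -0.32). The part of these cell types in the results for guidance genes was not tested.

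Levels are given as TMM-scaled RPKM, the same measure with each sample scaled by its exon reads and TMM factor. This scale sets the typical gene at no change between groups. Over both groups, and apart from Unc50 at 28.0, the highest mean values of the deposited RPKM were 29.0 for Sema3f, a secreted repellent, 20.5 for Sema7a, a semaphorin held in the membrane by a lipid anchor, 16.1 for Plxnb1, the receptor of Sema4d, and 13.9 for Plxna2, a receptor that works with neuropilins. Slit2, the main Slit ligand of Robo receptors, followed at 12.0. The median over the 64 members was 3.03. Just inside the level threshold were Robo4 at 0.315, Epha1 at 0.336 and Ntn3 at 0.345, and just outside it were Efna4 at 0.190, Robo3 at 0.182 and Ntn5 at 0.112. The other members below it were Slit3, Ntn1, Plxnb3 and Unc5cl, and Unc5cl, like Unc50, was not counted in any guidance family.

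**Figure D1:**
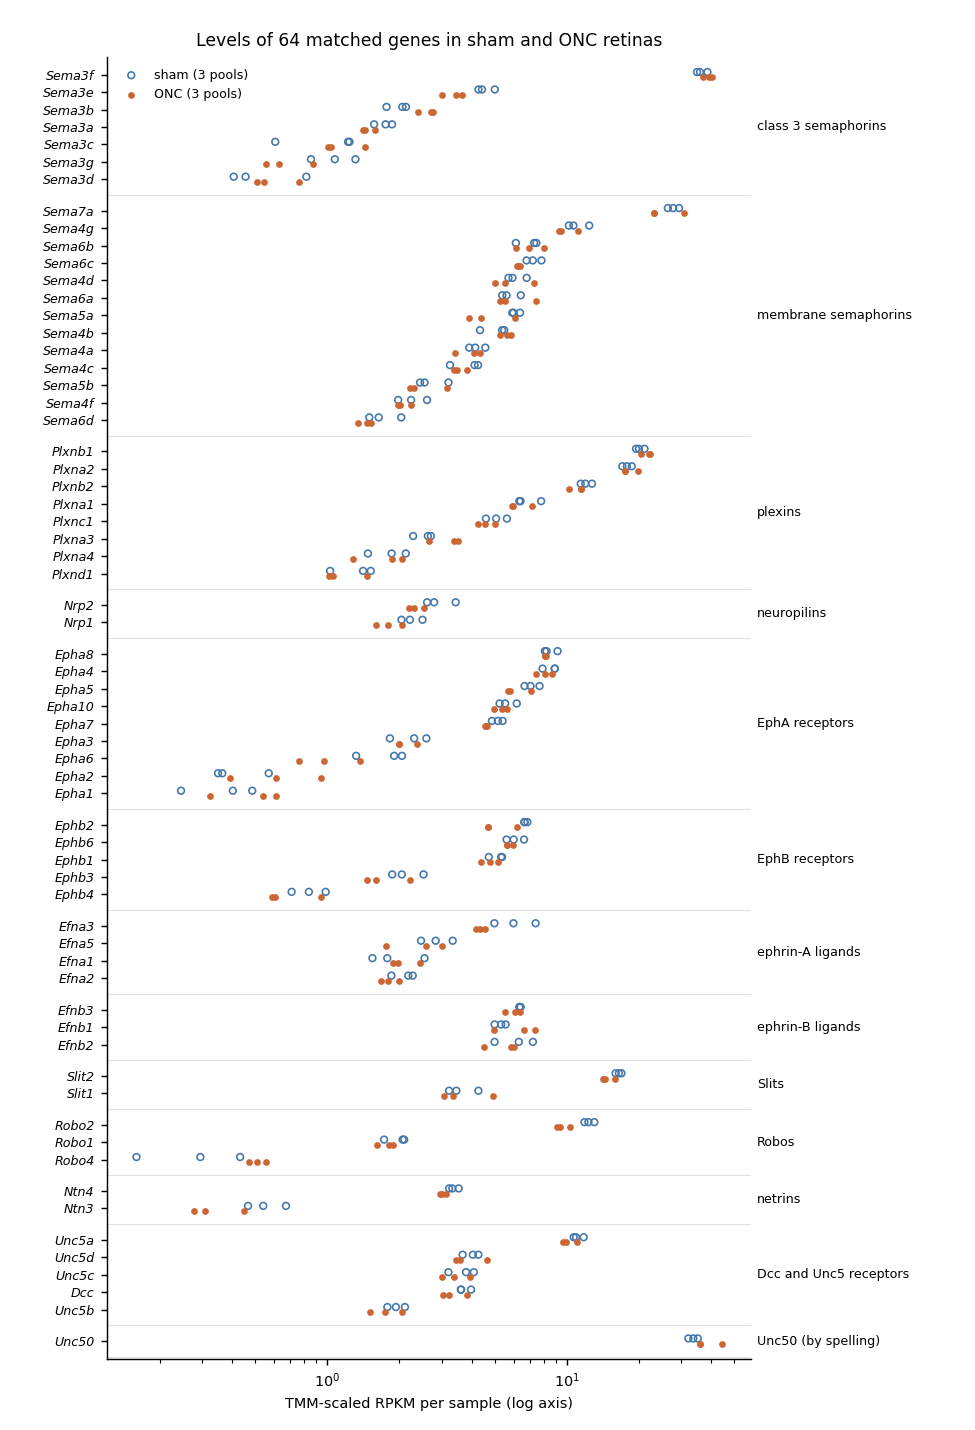
Level of each of the 64 members in every sample, as TMM-scaled RPKM on a log axis, grouped by family. Open circles are the 3 sham pools and filled circles the 3 ONC pools. For most genes the 2 groups lie among each other. The 3 ONC circles lie to the left of all sham circles for 10 genes (15.6%, against 10.8% of all genes), Robo2, Sema3e and Ephb2 among them. They lie to the right for 3 genes (4.69%, against 11% of all genes).

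Few guidance genes changed. Exon reads were compared with the quasi-likelihood test of edgeR, and genes passed at an FDR (adjusted by Benjamini-Hochberg over all 13670 genes) under 0.1. By this test 4 of the 64 members were lower after ONC and 0 were higher. These are 6.25% and 0% of the members, and of all genes tested 3.72% were called lower and 2.38% higher. The 4 were Robo2, Sema3e, Ephb2 and Epha6, which are 3 receptors and 1 ligand. With only 4 genes, the share called lower was near the background, and nothing particular to these families is read from it. At an unadjusted p under 0.05, 3 members were higher and 10 lower, with 7.73% and 8.99% of all genes as background. DESeq2 called 0 members higher and 5 lower, with 2.59% and 4.23% of all genes called. Limma on log2(RPKM + 0.1) called 0 in either direction, with 7.15% of all genes called higher and 1.05% lower. With samples scaled as in RPKM, 2 members were lower (Robo2 and Epha6, with 1.63% of all genes as background) and 5 higher (Plxna3, Plxnb1, Sema3b, Sema3f and Unc50, with 11% as background). Without ONC replicate 1, 2 members were called higher (Plxna3 and Unc50) and 9 lower, at a background of 5.63% and 9.23% of all genes. Those 9 were Robo2, Sema3e, Ephb2, Epha6, Epha5, Nrp2, Sema5a, Sema7a and Slit2.

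Robo2, a Slit receptor that helps keep RGC axons on their path during development, had a TMM-scaled RPKM of 11.8, 13.02 and 12.3 in the sham samples and 10.3, 9.09 and 9.34 in the ONC samples, given here and below in the order of replicates 1, 2 and 3. Every ONC value lay under every sham value. The mean fell from 12.4 ± 0.593 to 9.58 ± 0.651 (SD, n = 3 pools in each group), a log2 fold change of -0.37 with a standard error of 0.07 and an edgeR FDR of 0.0036. The fall was called in each of the 6 fits that left out 1 sample. Reads that cross an exon-exon junction, which come from spliced RNA, numbered 871, 976 and 813 in the sham samples and 798, 746 and 759 in the ONC samples, before any scaling. The gene lies on chromosome 16 from 73892306 to 74410912, spanning 519 kb with 28 exons.

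Sema3e, a secreted semaphorin that binds the receptor Plxnd1 without a neuropilin, was at 4.27, 5.001 and 4.42 in the sham samples and 3.65, 3.02 and 3.45 in the ONC samples. The groups did not overlap, although ONC replicate 1 came closest to the sham samples. It fell by 26.2%, with a log2 fold change of -0.44 (SE 0.11) and an edgeR FDR of 0.0302, and it missed the threshold without sham replicate 2 (FDR 0.187) or ONC replicate 2 (FDR 0.153). Its receptor Plxnd1 was at 1.41, 1.03 and 1.52 in the sham samples and 1.06, 1.02 and 1.47 in the ONC samples, with overlapping values and an FDR of 0.745. Plxnd1 is named here for its pairing with Sema3e. Sema3e lies on chromosome 5 from 14025276 to 14256689.

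Ephb2, a receptor for B-class ephrins that takes part in guiding RGC axons to the optic disc, was at 6.84, 6.67 and 6.64 in the sham samples and 6.18, 4.70 and 4.70 in the ONC samples. The sham values were nearly level and all ONC values were lower, ONC replicate 1 the least so. The log2 fold change was -0.37 (SE 0.12) with an edgeR FDR of 0.0828. Of the 6 fits without 1 sample, only the one without ONC replicate 1 kept the call (FDR 0.00198), and the others gave an FDR of 0.182 to 0.297. The gene lies on chromosome 4 from 136653608 to 136835935.

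Epha6, a receptor for A-class ephrins, was the only member with both an FDR under 0.1 and a change over 1.5-fold, the criteria for differentially expressed genes (DEGs), which 0.834% of all genes met as lower and 0.827% as higher. It was at 1.32, 2.05 and 1.90 in the sham samples and 1.37, 0.765 and 0.971 in the ONC samples. The groups overlapped, since ONC replicate 1 lay above sham replicate 1. The log2 fold change was -0.77 (SE 0.24) with an edgeR FDR of 0.0938, from 66 to 157 exon reads per sample. Unique reads made up 87.8% of its exon reads, and on unique reads alone the FDR was 0.112. The call was also lost without sham replicate 2 (FDR 0.347), sham replicate 3 (FDR 0.285), ONC replicate 2 (FDR 0.336) or ONC replicate 3 (FDR 0.255). The gene lies on chromosome 16 from 59653483 to 60605531, with 18 exons over 952 kb.

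**Figure D2:**
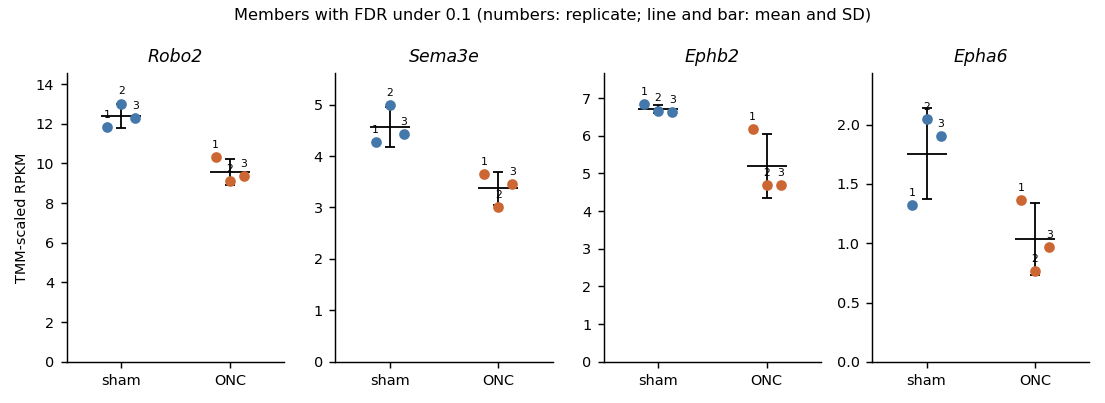
TMM-scaled RPKM of the 4 members with an FDR under 0.1, each axis starting at 0. Points are pools, numbered by replicate, and the line and bar give the mean and SD of 3. In Robo2, Sema3e and Ephb2 all ONC points are below all sham points, while in Epha6 ONC replicate 1 at 1.37 is above sham replicate 1 at 1.32.

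For the 4 genes called lower, the 250 bases before the annotated start of each are shown, from RefSeq on GRCm38.p6. Whether the 4 falls have anything in common was not tested. Each is written 5′ to 3′ on the strand of the gene, with the CpG dinucleotides in capitals.
Robo2, chr16:74411826-74412075, minus strand: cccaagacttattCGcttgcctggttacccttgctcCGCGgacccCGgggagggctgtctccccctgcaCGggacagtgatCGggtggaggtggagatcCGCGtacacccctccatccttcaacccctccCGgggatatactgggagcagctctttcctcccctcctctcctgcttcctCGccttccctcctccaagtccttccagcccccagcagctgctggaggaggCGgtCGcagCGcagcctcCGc
Ephb2, chr4:136836013-136836262, minus strand: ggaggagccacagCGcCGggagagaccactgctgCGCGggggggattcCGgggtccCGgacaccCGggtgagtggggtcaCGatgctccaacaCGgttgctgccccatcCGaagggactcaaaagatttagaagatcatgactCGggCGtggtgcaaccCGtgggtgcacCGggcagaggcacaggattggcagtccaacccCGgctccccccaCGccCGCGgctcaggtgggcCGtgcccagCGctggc
Epha6, chr16:60605532-60605781, minus strand: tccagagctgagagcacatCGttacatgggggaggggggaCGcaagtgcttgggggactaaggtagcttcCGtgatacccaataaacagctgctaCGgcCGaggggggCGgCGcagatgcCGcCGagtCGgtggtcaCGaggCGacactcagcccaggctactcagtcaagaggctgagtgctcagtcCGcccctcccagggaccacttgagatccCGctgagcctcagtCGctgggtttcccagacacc
Sema3e, chr5:14025026-14025275, plus strand: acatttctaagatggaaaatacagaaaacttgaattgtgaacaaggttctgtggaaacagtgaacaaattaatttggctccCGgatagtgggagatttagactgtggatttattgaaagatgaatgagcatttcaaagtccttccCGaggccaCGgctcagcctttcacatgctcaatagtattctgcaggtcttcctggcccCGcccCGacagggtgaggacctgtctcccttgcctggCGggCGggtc
The windows of the receptor genes held 14 CpG in Robo2, 20 in Ephb2 and 15 in Epha6, and had a GC content of 65.6%, 68.4% and 62.8%. The window of the ligand gene Sema3e held 7 CpG and had a GC content of 48.0%. The median over 32851 windows was 6 CpG and 52.4%. The Robo2 window was the nearest of 3 in RefSeq and lay 913 bases from the start of the gene in the deposited tables, and the Ephb2 window lay 77 bases from it. None of the 4 windows held the letters of the AP-1 motif (TGAGTCA or TGACTCA, present in 4.46% of all windows), of the CRE motif (TGACGTCA, 1.55%) or of the homeodomain core (TAATTA, 4.84%), on either strand. This says only that these letters are not in these windows.

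Most members moved little. The fitted change was within 1.25-fold in either direction for 50 of the 64 genes. For 47, the interval of 1.96 standard errors either side stayed within 1.5-fold, and a 95% interval of the edgeR test would be wider. The shares of all genes within these limits were not counted. More members were below 0 than above it on the log2 fold change scale, 47 against 17, or 73.4% below 0 against 47.7% of all genes, but only 50% were below 0 when samples were scaled as in RPKM, by exon and intron reads together. That scaling moved the median of all genes from 0.01 to 0.13 and the median of the members from -0.12 to -0.00, so the distance between the 2 medians stayed at -0.13. Leaving out 1 sample moved this distance to between -0.19, without ONC replicate 1, and -0.07, without ONC replicate 2. Without ONC replicate 1, 51 of the 64 members (79.7%) and 47.5% of all genes were below 0. Relative to the median of all genes, 47 of the 64 members were lower under both scalings. Fold changes of genes within a sample are not independent of each other, and no test was made of this count. The range was from -0.77 for Epha6 to 0.78 for Robo4, a Robo mainly of blood vessels.

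**Figure D3:**
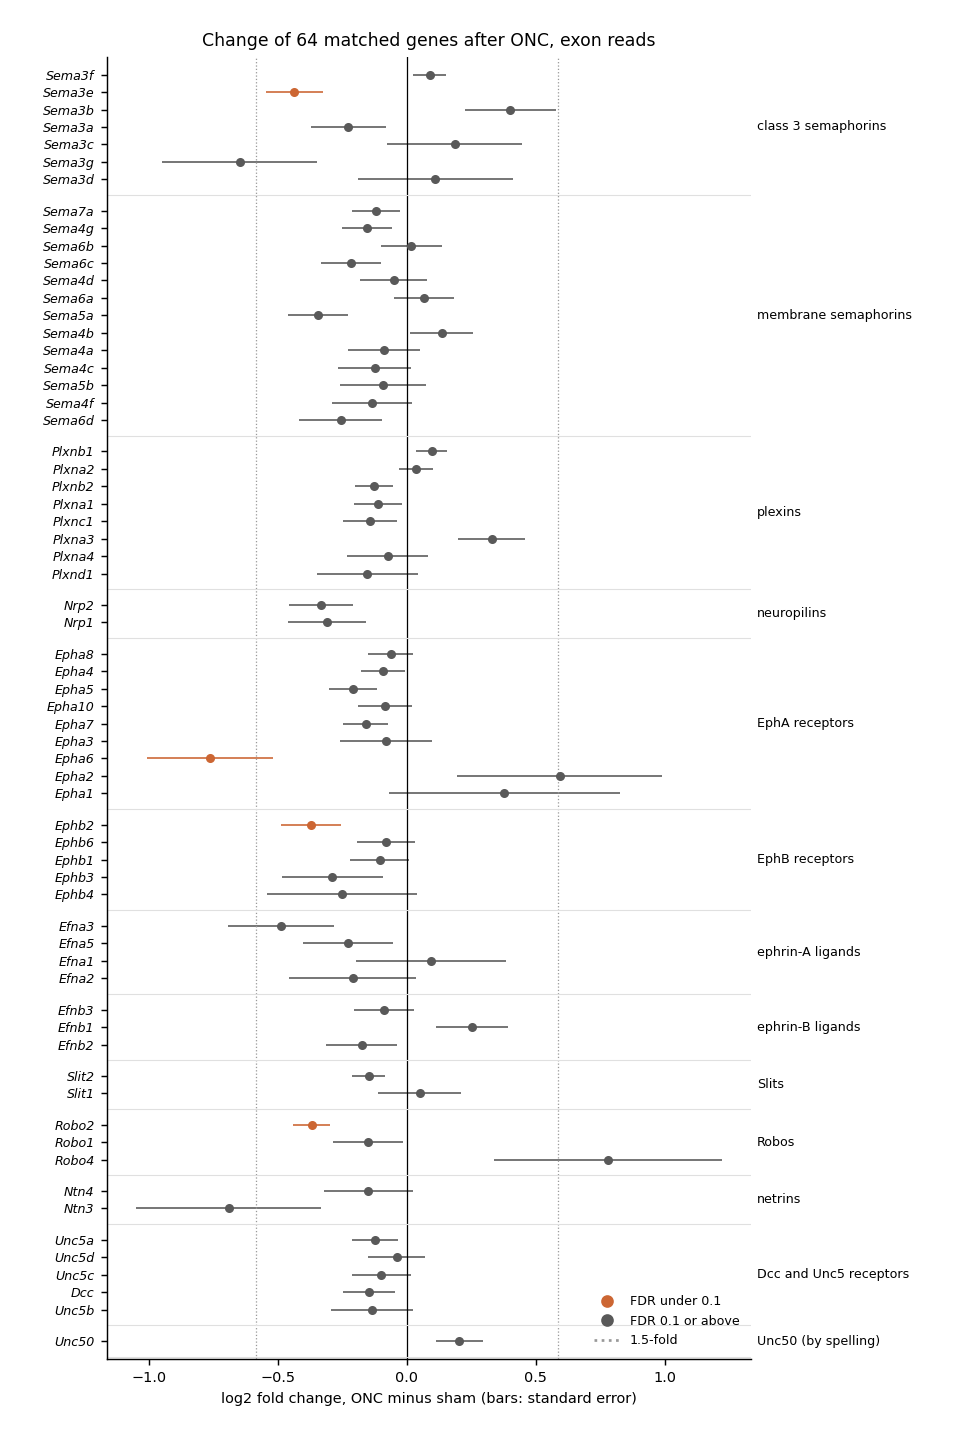
Log2 fold change of each of the 64 members, ONC minus sham, on TMM-scaled exon reads, with the standard error as a bar and dotted lines at 1.5-fold. The 4 members with an FDR under 0.1 are drawn in orange and all lie left of 0. Most others lie slightly left of 0, at a median of -0.12, which becomes -0.00 when samples are scaled as in RPKM.

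The 3 ONC values lay under the 3 sham values in 10 members (15.6%, with 10.8% of all genes as background) and over them in 3 members (4.69%, with 11% of all genes as background). Besides Robo2, Sema3e and Ephb2, the lower ones were Ntn3, Efna3, Nrp2, Sema6c, Epha7, Ntn4 and Slit2, and the higher ones Robo4, Sema3b and Unc50. None of these 10 passed the FDR, and their values follow by role. Without ONC replicate 1, 26 members (40.6%) were lower without overlap and 5 higher (7.81%), against 19.9% and 20.1% of all genes. The lower shares are given by gene span further below. Robo2, Sema3e and Ephb2 were called lower on the same values, so their lack of overlap is no separate evidence.

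Among ligands, the 7 class 3 semaphorins held 1 gene that fell, Sema3e, and 6 that did not pass. Sema3f, the most abundant member, was at 35.95, 34.96 and 38.6 in the sham samples and 39.2, 36.98 and 40.3 in the ONC samples, overlapping, with a log2 fold change of 0.09 (SE 0.06, edgeR FDR 0.520). It thus made up most of the class, whose summed level was 46.6 to 48.999 in the sham samples and 46.3 to 50.4 in the ONC samples. Sema3b, another secreted semaphorin, was at 1.98 ± 0.192 in the sham samples and 2.62 ± 0.205 in the ONC samples (SD, n = 3), with non-overlapping values, a log2 fold change of 0.40 and an edgeR FDR of 0.250.

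None of the 13 membrane semaphorins passed. Sema7a was at 27.8, 26.4 and 29.4 in the sham samples and 30.7, 23.2 and 23.0 in the ONC samples. ONC replicate 1 was the highest of all 6 and the other ONC samples were the lowest, and the log2 fold change of -0.12 (SE 0.09) had an edgeR FDR of 0.547, or 0.0119 without ONC replicate 1. Sema5a, named after its values were seen, was at 5.92, 5.98 and 6.37 in the sham samples and 6.10, 4.39 and 3.89 in the ONC samples, so that ONC replicate 1 lay within the sham values and the other ONC samples below them. It has an extracellular domain with thrombospondin repeats and acts as a repellent for RGC axons, and its edgeR FDR was 0.113. Sema6c was at 7.28 ± 0.526 and 6.26 ± 0.1002 (SD, n = 3), with a log2 fold change of -0.22 and an edgeR FDR of 0.365.

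None of the 4 ephrin-A and 3 ephrin-B genes passed. Efna3, an ephrin anchored by a lipid and bound by EphA receptors, was at 5.98, 4.98 and 7.40 in the sham samples and 4.33, 4.18 and 4.56 in the ONC samples. The groups did not overlap, but the spread among the sham samples was wide, and the log2 fold change of -0.49 (SE 0.21) had an edgeR FDR of 0.228. Unique reads made up 84.6% of its exon reads. Efnb3, a transmembrane ephrin, was at 6.41, 6.35 and 6.34 in the sham samples and 5.51, 6.07 and 6.36 in the ONC samples, overlapping, with a log2 fold change of -0.09 that became 0.03 with the scaling of RPKM, and an edgeR FDR of 0.753.

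Neither of the 2 Slits and neither of the 2 netrins passed. Slit2 was at 15.98, 16.9 and 16.5 in the sham samples and 15.9, 14.2 and 14.4 in the ONC samples. The groups did not overlap, by a narrow margin at ONC replicate 1, and the log2 fold change of -0.15 (SE 0.06) had an edgeR FDR of 0.242, or 0.0268 without that sample. Ntn4, a netrin that also binds laminin, was at 3.33, 3.54 and 3.22 in the sham samples and 3.12, 3.02 and 2.95 in the ONC samples, again without overlap, with a log2 fold change of -0.15 (SE 0.17) and an edgeR FDR of 0.713. Ntn3 had 27 to 60 exon reads per sample, lies within the span of the protein-coding gene Tbc1d24, and had a log2 fold change of -0.69 and an edgeR FDR of 0.341. Ntn1, the netrin best known from the developing optic nerve head, had 9 to 17 exon reads per sample and was below the level threshold.

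Among receptors, none of the 8 plexins passed. Plxnb1 was at 19.997, 19.5 and 21.1 in the sham samples and 22.2, 20.3 and 22.1 in the ONC samples. These values overlapped, with a log2 fold change of 0.10 (SE 0.06) and an edgeR FDR of 0.461. Plxna3, a partner of neuropilin 2 named after its values were seen, was at 2.71, 2.28 and 2.63 in the sham samples and 2.66, 3.37 and 3.53 in the ONC samples, with an edgeR FDR of 0.200 that passed without ONC replicate 1.

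Neither neuropilin passed. Nrp2, the co-receptor of Sema3f, was at 2.61, 3.43 and 2.79 in the sham samples and 2.52, 2.20 and 2.29 in the ONC samples. The groups did not overlap, the log2 fold change was -0.33 (SE 0.13) and the edgeR FDR 0.172. Nrp1, named as the other neuropilin and the co-receptor of Sema3a, was at 2.50, 2.21 and 2.04 in the sham samples and 2.06, 1.79 and 1.60 in the ONC samples, overlapping at 1 sample, with an edgeR FDR of 0.307.

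Of 9 EphA receptors Epha6 fell and 8 did not pass, and of 5 EphB receptors Ephb2 fell and 4 did not pass. Epha8 was at 8.09, 8.23 and 9.15 in the sham samples and 8.15, 8.09 and 8.11 in the ONC samples, overlapping, with a log2 fold change of -0.06 that became 0.06 with the scaling of RPKM, and an edgeR FDR of 0.772. Epha7 was at 5.14 ± 0.263 in the sham samples and 4.60 ± 0.0570 in the ONC samples (SD, n = 3), with a log2 fold change of -0.16 and an edgeR FDR of 0.370. The remaining EphA and EphB genes had overlapping groups and edgeR FDRs from 0.262, for Epha5, upward.

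Of 3 Robos above the level threshold Robo2 fell and 2 did not pass. Robo4 was at 0.295, 0.432 and 0.160 in the sham samples and 0.506, 0.556 and 0.469 in the ONC samples, without overlap. It rested on 10 to 42 exon reads per sample, with a log2 fold change of 0.78 (SE 0.44) and an edgeR FDR of 0.395. The summed level of 7 markers of endothelial cells was 17.6 to 21.4 in the sham samples and 17.3 to 19.3 in the ONC samples.

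None of Dcc and the 4 Unc5 receptors passed. Unc5a, a netrin receptor, was at 10.7, 10.9 and 11.8 in the sham samples and 11.03, 9.64 and 9.91 in the ONC samples, overlapping, with a log2 fold change of -0.12 (SE 0.09) and an edgeR FDR of 0.511. Its span overlaps that of the protein-coding gene Hk3. Unc50 was at 35.2, 32.2 and 33.7 in the sham samples and 36.1, 44.2 and 36.0 in the ONC samples, with a log2 fold change of 0.20 and an edgeR FDR of 0.259.

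The summed level of each family, over all its matched members, was compared with a two-sided exact permutation test, whose smallest p is 0.1 with 3 samples against 3, so that no family could pass. The sums did not overlap between groups in 5 families, each at p = 0.1 by that exact test. The change was -20.01% for the neuropilins, -17.7% for the Robos, -17.3% for the ephrin-A genes, -15.2% for the netrins and -13.1% for the EphB receptors, and all 5 stayed below 0 on the deposited RPKM scale, where only the ephrin-A genes stayed without overlap. The membrane semaphorins (-6.86%), EphA receptors (-8.16%), Slits (-6.95%), Dcc and Unc5 receptors (-7.40%) and ephrin-B genes (-0.445%) overlapped between groups, and on the deposited RPKM scale, which raises ONC over sham for all genes alike, all of these turned above 0. The class 3 semaphorins (2.73%) and plexins (0.325%) also overlapped, and on the deposited RPKM scale they were 11.8% and 9.23% higher without overlap (p = 0.1 by the exact test). Robo2 held most of the Robo sum, which was 13.9, 15.7 and 14.7 in the sham samples and 13.1, 11.7 and 11.7 in the ONC samples.

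**Figure D4:**
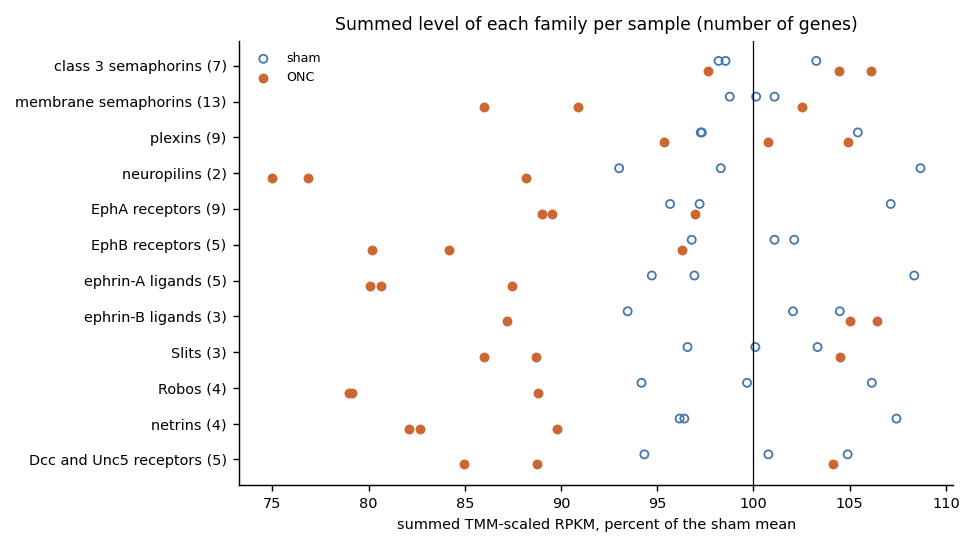
Summed TMM-scaled RPKM of each family per sample, as a percentage of the sham mean, with the number of genes in parentheses. Open circles are sham pools and filled circles ONC pools. The 5 families without overlap are the neuropilins, EphB receptors, ephrin-A genes, Robos and netrins. On the deposited RPKM scale the membrane semaphorins, EphA receptors, ephrin-B genes, Slits and Dcc and Unc5 receptors turn above 0, with the shift to higher ONC values that this scale gives all genes.

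The members are large genes. Their median span from first to last base was 51.4 kb, against 22.6 kb over all genes tested, and 28 of the 64 spanned 100 kb or more. All 4 members that fell were among these 28, or 14.3%, while 10.3% of the 1915 tested genes of this span and 2.64% of the 11755 shorter genes fell. The median log2 fold change of the 28 was -0.15 and 82.1% were below 0, against -0.09 and 71.0% for all genes of this span. For the 36 shorter members 66.7% were below 0, against 43.9% of all shorter genes. Without ONC replicate 1, 8 of the 28 long members (28.6%) were called lower, against 26.2% of all genes of this span. Of the 36 shorter members 2.78% were called lower, against 6.47% of all shorter genes. In the same samples 53.6% of the long members were lower without overlap, against 42.2% of all genes of this span. For the shorter members this share was 30.6%, against 16.3% of all shorter genes. The part of gene span in the fall of the 4 members was not tested.

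Reads in introns, which come mostly from RNA not yet spliced or from genes inside the introns, are a second readout of the same libraries. They could be tested for 53 of the 64 members, among 13317 genes with a mean of at least 10 intron reads. The log2 fold change was below 0 for 36 of the 53 (67.9%), against 47.8% of all genes. Among the 26 tested members under 100 kb it was below 0 for 38.5%, against 40.5% of all genes of this span. The members of 100 kb or more are given further below. By edgeR's test with its own TMM factors, 3 members were lower (5.66%, with 2.37% of all genes as background) and 1 was higher (1 of 53, with 0.511% as background). The lower ones were Epha3, Dcc and Robo2, and the higher one Plxnb1. All 3 lower ones span 100 kb or more. They are 11.1% of the 27 tested members of this span, and 9.96% of all genes of this span were called lower. These calls rest on few reads, and the spread between pools was larger than for exons, with a biological coefficient of variation of 23.2% against 9.17%.

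Of all genes of 100 kb or more, 10.3% were called lower on exon reads and 9.96% on intron reads. How many of all genes were called in both was not counted. Robo2, which spans 519 kb, was the only member called in both readouts. Its intron CPM (intron reads per 1000000 TMM-scaled intron reads) was 66.1, 74.5 and 129 in the sham samples and 53.4, 43.8 and 50.04 in the ONC samples. The groups did not overlap, with sham replicate 3 far above the rest. The log2 fold change was -0.88 (SE 0.22) with an edgeR FDR of 0.0808, and without sham replicate 3 it was -0.52 with an FDR of 0.227.

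Dcc, the attractive netrin receptor, had an intron CPM of 131, 162 and 308 in the sham samples and 111, 102 and 107 in the ONC samples. The groups did not overlap, and sham replicate 3 was again the highest. The log2 fold change was -0.91 (SE 0.24) with an edgeR FDR of 0.0901, or -0.45 and 0.214 without sham replicate 3. On exon reads the log2 fold change of Dcc was -0.15, with an FDR of 0.495. Epha3, a receptor for A-class ephrins, was at 23.3, 37.7 and 66.6 intron CPM in the sham samples and 20.05, 14.2 and 14.996 in the ONC samples, with a log2 fold change of -1.38 (SE 0.31) and an edgeR FDR of 0.0655, or -0.90 and 0.182 without sham replicate 3. On exon reads it was at 2.24 ± 0.387 and 2.11 ± 0.213 (SD, n = 3), overlapping.

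Plxnb1 had an intron CPM of 20.8, 20.6 and 16.97 in the sham samples and 31.7, 32.6 and 36.1 in the ONC samples, from 102 to 229 reads per sample. The groups were well apart, and sham replicate 3 was the lowest. The log2 fold change was 0.78 (SE 0.20) with an edgeR FDR of 0.0839, and it was 0.55 with an FDR of 0.205 when intron reads were scaled by the exon reads of the same sample. Of the 27 members of 100 kb or more with an intron test, 26 were below 0 (96.3%), against 85.1% of the 2169 genes of this span, with medians of -0.62 and -0.42. Without sham replicate 3, ONC replicate 3, sham replicate 2 or ONC replicate 2, no member was called on intron reads, but of all 13317 genes only 91, 1, 0 and 0 were called in these fits, against 383 with all samples, so these counts say nothing about the members.

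**Figure D5:**
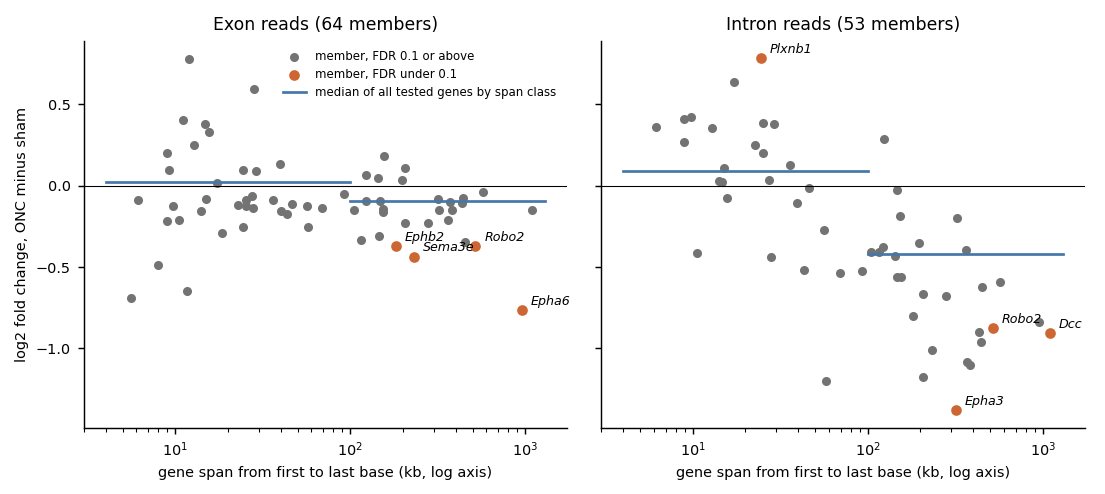
Log2 fold change against gene span in kb on a log axis, for exon reads (left, 64 members) and intron reads (right, 53 members). Points are members, orange where the FDR was under 0.1, and blue lines are the medians of all tested genes under and over 100 kb. On the right, 26 of the 27 long members lie below 0, as do 85.1% of all long genes.

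Other genes of the pathway were taken from lists chosen by role. Of 39 tested genes for co-receptors, adhesion partners and other guidance systems, 4 fell and 0 rose by edgeR's test, with 3.72% and 2.38% of all genes as background and a median log2 fold change of -0.10. Those that fell were Alcam (-0.43) and Nrcam (-0.32), adhesion molecules of growing axons, Ptprf (-0.28), a receptor phosphatase, and Fzd3 (-0.27), a Wnt receptor. Of 61 tested intracellular effectors, 4 fell and 0 rose against the same background, with a median of -0.06. They were Limk1 (-0.64), a kinase of cofilin that acts on actin, Dpysl2 (-0.54) and Dpysl5 (-0.46), of the collapsin response mediator family that passes on semaphorin signals, and Abl2 (-0.24), a tyrosine kinase. Limk1 was at 10.3, 11.1 and 11.5 in the sham samples and 7.81, 6.60 and 6.69 in the ONC samples, with an edgeR FDR of 0.00075. Dpysl2 was at 23.3, 23.1 and 23.97 in the sham samples and 20.98, 13.8 and 13.7 in the ONC samples, so that ONC replicate 1 again lay nearest to the sham samples, with an FDR of 0.0081. All 8 genes that fell in these lists had ONC values under every sham value, as 10.8% of all genes did. These 8 were called lower on the same values, so their lack of overlap is no separate evidence. Without ONC replicate 1, 26 of the genes tested in these lists (39 and 61) were called lower and 1 higher. The background was 9.23% and 5.63% of all genes, and 26.2% of all genes of 100 kb or more were called lower. These lists were not split by gene span.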

How the data were processed

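RNA-seq of whole retinas was analysed from 3 ONC and 3 sham pools, grouped and numbered by the sample labels. The authors mapped reads with CLC Genomics Workbench 6.0.1, with 2 mismatches allowed, and deposited for each gene raw read counts on exons, on exon junctions and on the whole gene, as all and as unique reads. The RPKM values deposited by the authors divide exon reads by all reads on genes, introns included. A column of group means and the median coverage of each gene, also deposited by the authors, were not used. The study names mm9, but positions in the tables overlap RefSeq GRCm38.p6 for 99.9% of 29905 matched genes and are given as such. Whether counting used strand is not given in the sources used here, so reads of overlapping and antisense genes cannot be told apart: 30 of the 64 members have another RefSeq gene in their span.

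The 13670 genes whose mean RPKM exceeded 0.3 in either group or both were tested on total exon reads with edgeR 4.0.16 (TMM, glmQLFit, glmQLFTest) in R 4.3.3, on group alone, and p-values were adjusted by Benjamini-Hochberg across these genes. Intron reads are gene reads minus exon reads. The standard error is the log2 fold change divided by the square root of the F statistic, and intervals are 1.96 standard errors either side. These intervals are narrower than 95% intervals of the edgeR test. That of Nrp1, -0.604 to -0.015, left out 0 although its unadjusted p by the edgeR test was 0.0533. Depth was 17343945 to 20358008 exon reads per sample. Alternatives used DESeq2 1.42.0, limma 3.58.1, other scalings, filters and read types, the replicate number as a block, and each sample left out. Shares below 0, without overlap and by gene span without ONC replicate 1 were added after the data were seen.

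Members and lists were chosen with earlier results of these data known. Genes named with full values are those with an FDR under 0.1 and the highest of each family, then those whose groups did not overlap, those next to the level threshold, the largest falls of the other lists and those called on intron reads. Plxnd1, Nrp1, Ntn1, Sema5a, Plxna3 and Epha5 were added after their values were seen. Promoter windows of RefSeq matched 55 of the 64 members. Arhgap35, 1 of 62 listed effectors, was not found by symbol, and 3 of 42 other guidance genes were below the filter. Of the other marker lists, summed levels overlapped between groups for photoreceptors, bipolar cells, amacrine and horizontal cells, Muller glia and astrocytes, endothelial cells, oligodendrocytes, pigment epithelium and lens. Single markers were called in photoreceptors (Sag and Pde6b higher), amacrine and horizontal cells (Calb1 lower) and lens (Cryaa higher), and lens sums overlapped only through sham replicate 1 (51.3, against 7.79 and 11.7 in the other sham samples and 47.4 to 63.6 in ONC). Mural cell markers were 14.3 to 16.6 in sham and 12.7 to 14.1 in ONC. Same-numbered samples did not deviate together (correlations of -0.0474, -0.0333 and 0.0026), so the numbers were not taken as pairs. Figures were drawn with matplotlib 3.10.9, and tables were made with Python 3.11.15, numpy 2.4.6, pandas 2.3.3 and scipy 1.17.1.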

Additional observations from a re-analysis of the deposited data

How the results depend on the processing

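The direction of the 4 falls on exon reads held in every alternative tried, with log2 fold changes of -0.47 to -0.22 for Robo2, -0.52 to -0.24 for Sema3e, -0.52 to -0.21 for Ephb2 and -1.02 to -0.33 for Epha6. Robo2 was called in all 6 fits without 1 sample and in 10 of 12 other settings, missing only with limma (adjusted p of 0.165 and 0.169). Members called lower, 4 as reported, numbered 2 with the scaling of RPKM, 0 with limma at either pseudocount, 7 on total gene reads, 2 at an FDR under 0.05, and 1 to 9 without 1 sample. The genes called lower of all 13670 moved with these, from 508 to 223, 143 and 147, 784, 331, and 219 to 1262. Members called higher, 0 as reported, numbered 5 with the scaling of RPKM, 1 with limma on log2(RPKM + 1), and 0 to 2 without 1 sample. The 1 DEG, Epha6, became 0 with limma at either pseudocount, on unique reads and at an FDR under 0.05, became 3 on total gene reads, and was 0 to 1 without 1 sample. The 8 other guidance genes and effectors that fell became 3 with the scaling of RPKM, 2 with limma at either pseudocount, 15 on total gene reads, 4 at an FDR under 0.05, and 4 to 26 without 1 sample. On intron reads scaled by the library sizes and factors of the exon reads, 12 members were lower in place of 3. Members called higher were 0 in place of 1. Of all 13317 genes, 9.61% were called lower in that fit in place of 2.37%, and 0.18% higher in place of 0.511%. Without 1 sample, 0 to 7 members were lower on intron reads and 0 to 1 higher. Those fits called 0 to 743 of all genes lower and 0 to 171 higher. The edgeR fit with the scaling of RPKM differs from the reported one in scale alone, and the cause of the other shifts was not tested.

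The scaling of RPKM turned the log2 fold change of Sema7a to 0.00105. It gave 0.0606 for Epha8 and 0.0332 for Efnb3, and limma gave 0.0597 and 0.0524 for Epha8 and 0.0298 and 0.0255 for Efnb3 at pseudocounts of 0.1 and 1. On the deposited RPKM scale the family sums changed by 11.8% for class 3 semaphorins, 1.21% for membrane semaphorins, 9.23% for plexins, 0.0535% for EphA, -5.75% for EphB, -9.83% for ephrin-A, 8.20% for ephrin-B, 1.16% for Slits, -10.6% for Robos, -7.80% for netrins and 0.717% for Dcc and Unc5 receptors.

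With the replicate number as a block, 4 members were lower and 0 higher on exon reads: Sema5a was called and Epha6 was not (FDR 0.119), which left 0 DEGs. On intron reads the block gave 4 lower and 0 higher. The numbers do not pair the samples by the labels, and same-numbered samples did not deviate together. Depth limits the low members, Robo4, Epha1, Epha2 and Ntn3, and the intron reads.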
